A study of Mus musculus with 4 samples.

Results

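The urea cycle and the breakdown of amino acids were followed through 46 genes given by name. A gene was taken from the arrays where the gene name of a non-control probe was one of these, and the brightest probe stood for the gene, which gave 43 genes of 27962 gene names on the array. Gpt, Haao and Amt had no probe under these names. Their signals came from Agilent 2-colour arrays of the whole mouse genome, hybridised with liver or spleen RNA of C57BL/6J males at 13 weeks of age. The series design names purified diets, while the growth protocol names a standard chow, and the diet groups were taken from the sample labels. For 4 weeks the mice had eaten one of a pair of diets. The first was poor in nucleoprotein (low NP) and contained 0.03% nucleic acids, and the second carried 1.2% of added nucleoprotein (NP) and so 0.5% nucleic acids. The study compared the diets within each tissue. RNA was pooled within a diet and tissue, from a number of mice that the labels leave out, so that differences between animals were not measured. Liver and spleen had 2 arrays each, all on 1 slide, and the NP pool was labelled with Cy5 on array 1 and with Cy3 on array 2.

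The liver turns the nitrogen of amino acids into urea. Ammonia enters the cycle as carbamoyl phosphate in the mitochondria of hepatocytes, passes through citrulline and arginine, and leaves as urea, while the carbon skeletons go to glucose, ketone bodies or the citrate cycle. Many of these enzymes are made mainly by hepatocytes, whereas those of branched-chain amino acids and of glutamate are made in most tissues.

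The labels number the pools of a tissue's arrays 1 and 2 and do not say whether these differ. The arrays were counted as 1 pair of pools with the dyes exchanged, that is, 1 replicate of a diet in a tissue, and differences were described without a test or p-value. Ratios are log2 values of NP over low NP, averaged over both arrays. Behind ± stands how far either array lies from that mean, or, for medians of a list, how far either array's median lies from their middle. That middle can lie away from the printed median, which is taken over the genes' means. The deposited value table of the series runs the other way, low NP over NP. Genes counted as measured in a tissue if, on each of its arrays, the probe stood well above background in 1 channel or both. A call needed 1.5-fold or more on each array, in one direction. All 43 members found were measured in both tissues, and no member probe was saturated. In the NP spleen channel 40 of them were well above background on both arrays, and Cps1, Otc and Gldc on 1 of 2 arrays, so that these 3 passed the filter there through the low-NP channel. Their NP spleen signal was not well above background on array 2, so the size and rank of their differences against that pool are uncertain. Levels are normalized log2 signals of a probe, which can be compared between pools but not between genes.

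Over the whole array, 12 of 17100 measured liver genes were called higher in the NP pool (0.0702%) and 621 lower (3.63%). With the scanner software's own ratio the numbers were 303 higher and 1755 lower. In spleen 8 of 18567 genes were called higher (0.0431%) and 1175 lower (6.33%). Between 59.3% and 94.8% of an array's spots were well above background in a dye. Both dyes of spleen array 1 were at the upper end, with median negative-control signals of 156 and 307 against 62.7 and 71.9 on spleen array 2. No member passed 1.5-fold in opposite directions on the 2 arrays of a tissue, against 41 genes in liver and 25 in spleen.

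Promoter sequences of 36 of the 46 genes were held by the RefSeq table of build GRCm38.p6, as 37 entries. The 250 bases before the start are shown for 3 genes: Otc, a urea cycle gene much lower in NP spleen, and Ftcd and Hal, 2 histidine enzymes with a TATAAA close before the start. The windows are chrX:10252055-10252304, chr10:76575398-76575647 and chr10:93488518-93488767, all on the plus strand, written 5′ to 3′ with matches to the searched motifs in capitals.
Otc: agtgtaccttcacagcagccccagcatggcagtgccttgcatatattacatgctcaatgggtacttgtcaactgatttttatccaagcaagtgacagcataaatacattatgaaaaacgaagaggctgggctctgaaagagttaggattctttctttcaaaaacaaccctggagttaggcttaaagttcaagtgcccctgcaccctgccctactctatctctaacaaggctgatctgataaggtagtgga
Ftcd: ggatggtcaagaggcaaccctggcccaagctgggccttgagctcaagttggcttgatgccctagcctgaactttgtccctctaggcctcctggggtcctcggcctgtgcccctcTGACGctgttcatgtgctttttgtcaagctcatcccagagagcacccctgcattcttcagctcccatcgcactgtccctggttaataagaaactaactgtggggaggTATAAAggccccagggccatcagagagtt
Hal: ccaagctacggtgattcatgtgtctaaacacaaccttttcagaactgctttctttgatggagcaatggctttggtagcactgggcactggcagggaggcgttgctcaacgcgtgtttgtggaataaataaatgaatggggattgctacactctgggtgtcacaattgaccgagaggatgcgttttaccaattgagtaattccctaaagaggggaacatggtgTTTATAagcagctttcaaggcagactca
TATAAA, the core of the TATA box, was searched on both strands. It began 29 bases before the start in Ftcd and 28 bases before it in Hal, where it lies on the other strand. Of the members' 37 entries, 4 held it (10.8%), those of Tdo2, Ftcd, Hal and Hgd, against 12.4% of all 32851 promoters. The core TGACG of the cyclic AMP response element was in 2 entries, Ftcd and Shmt1 (5.41%, against 17.8% of all). The full element TGACGTCA, which contains TGACG, was in 0 of 37 entries (1.55% of all). The same 0 of 37 held for TTGCGCAA, a site of C/EBP factors (0.164% of all), for CAAAGTCCA, a site of HNF4 (0.384% of all), and for the palindromic site of HNF1 (0.0091% of all).

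The liver comparison asked whether the NP pool differed from the low-NP pool. In liver none of the 43 members was called, 0 higher and 0 lower. Their median ratio was 0.10 ± 0.10, with array medians of 0.02 and 0.22, against 0.00 over all measured genes. The mean of both arrays was above 0 in 37 members (86.0%, against 50.2% of all measured genes). Both arrays lay above 0 in 19 members and both below in 2, and the arrays had opposite signs in 22. Among all measured genes 29.2% lay above 0 on both arrays and 30.7% below. The members ranged from -0.33 ± 0.03 for Glul to 0.51 ± 0.01 for Prodh, and the largest value on any single array was 0.68, for Kynu on array 1. With median centring in place of loess the members' liver median was 0.39, against 0.06 over all genes, and again no member was called.

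Prodh, which encodes the first enzyme of proline breakdown, stood highest in liver. Its levels were 14.59 and 14.81 in the NP pool and 14.09 and 14.29 in the low-NP pool on arrays 1 and 2, so the NP pool was higher on both arrays by a like amount, short of the 1.5-fold that a call needs. Kynu, which encodes kynureninase, followed at 0.46 ± 0.21 (0.68 on array 1 and 0.25 on array 2). Amdhd1, an enzyme of histidine breakdown, was 0.38 ± 0.06, and Otc, which makes citrulline, 0.27 ± 0.28, the last with its whole difference on array 1. At the other end lay Glul, the glutamine synthetase of the hepatocytes around the central vein, at -0.30 on array 1 and -0.36 on array 2. Its levels were 14.81 and 14.88 in the NP pool and 15.11 and 15.25 in the low-NP pool. Agxt, which detoxifies glyoxylate, was the other member below 0 on both arrays, at -0.06 ± 0.02.

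The 6 urea cycle genes were nearly level between the liver pools. Cps1, which makes carbamoyl phosphate, had levels of 16.15 and 16.07 in NP liver and 15.91 and 16.18 in low-NP liver, a ratio of 0.06 ± 0.17. Nags, whose product activates Cps1, was 0.19 ± 0.17. Ass1 and Asl, which join aspartate to citrulline and split the product, were 0.04 ± 0.03 and 0.07 ± 0.21. Arg1, the arginase that releases urea, was 0.07 ± 0.20, with arrays of opposite sign. In 4 of these 6 genes the arrays disagreed in sign, and in Ass1 and Nags both lay above 0.

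Among the 10 members with the largest spleen differences, the liver values were as small. Dmgdh was 0.14 ± 0.19, Ftcd 0.05 ± 0.22, Mat1a 0.15 ± 0.08, Bhmt 0.06 ± 0.23, Gnmt -0.13 ± 0.25 and Tat 0.02 ± 0.18, beside the values of Cps1, Otc, Arg1 and Agxt above. No member of any other group was called in liver either. Group medians were 0.00 ± 0.02 for ammonia, glutamate and glutamine, 0.03 ± 0.06 for tyrosine, 0.16 ± 0.09 for tryptophan and kynurenine, and 0.32 ± 0.07 for proline. They were 0.14 ± 0.10 for serine, glycine and one-carbon units, 0.09 ± 0.18 for methionine and transsulfuration, 0.15 ± 0.04 for histidine and 0.12 ± 0.05 for branched-chain amino acids. For ammonia, glutamate and glutamine the array medians were -0.01 and -0.06, both below 0. The 2 proline genes had the highest group median, and the widest spread between arrays was that of the methionine group. Markers of other cells moved in the same comparison: 5 of 7 measured B cell markers, 5 of 8 T cell markers, 4 of 8 macrophage markers and all 8 pancreas markers were called lower in NP liver. With median centring 0 of the 8 pancreas markers were called in liver, at a median of -0.79. The summed signal of the B cell list was 2198 to 3743 in NP liver and 33834 to 41040 in low-NP liver. Their part in the small positive values of the members was not tested.

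**Figure D1:**
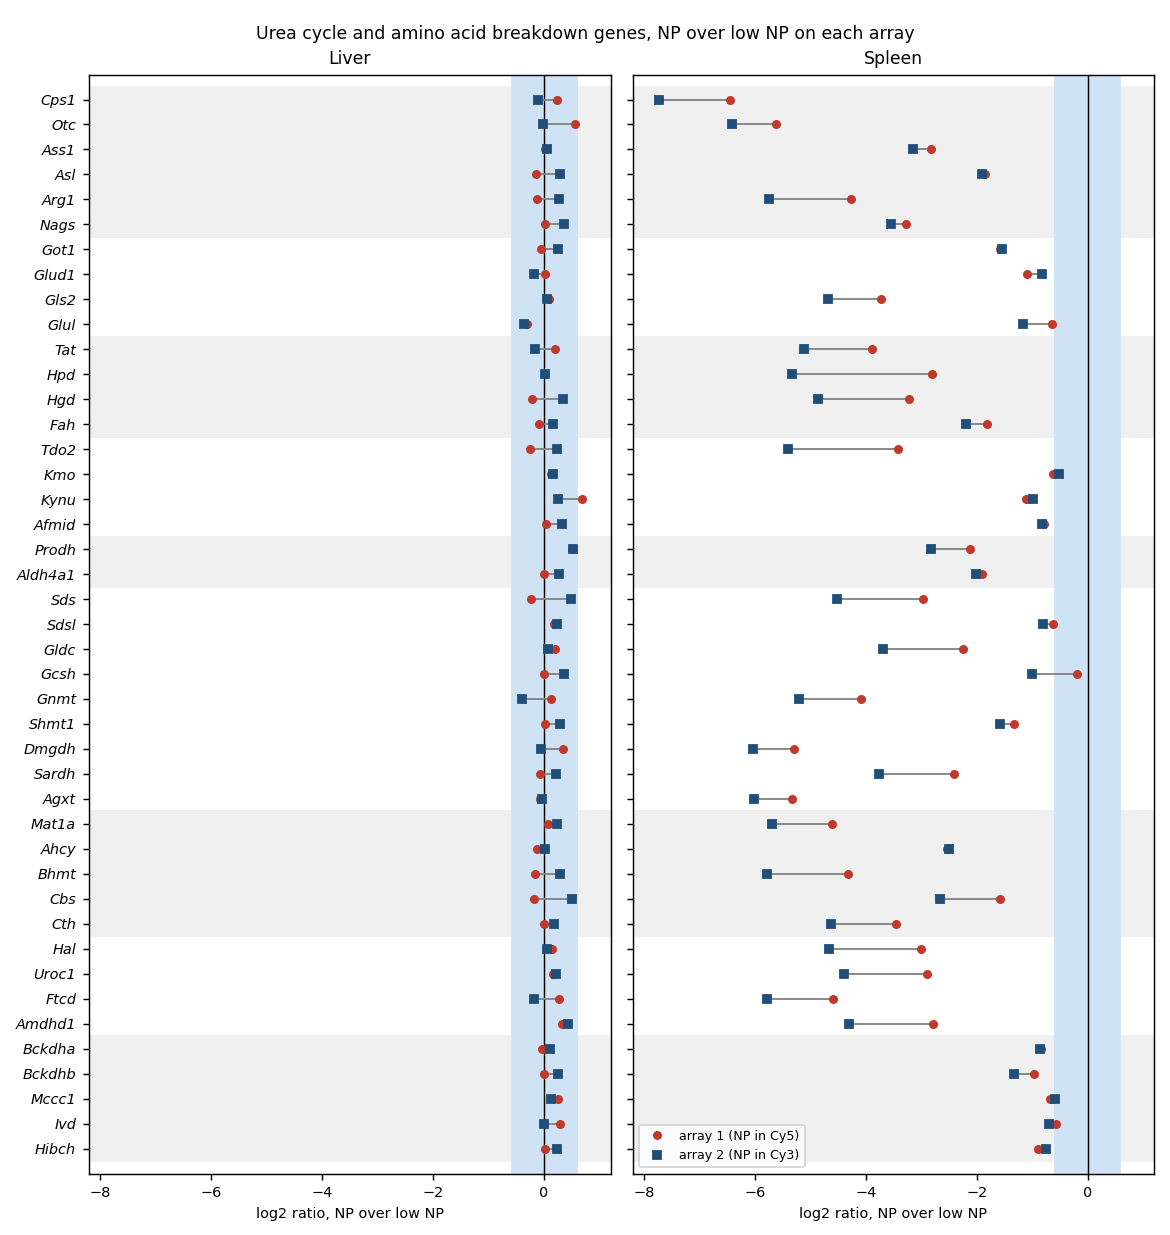
Log2 ratios of NP over low NP for the 43 members in liver (left) and spleen (right), one row per gene in the order of the groups of the text, marked by alternating shading. Red circles are array 1 and blue squares array 2, joined by a line, and the blue band spans less than 1.5-fold. In liver both arrays of every member lie in or beside the band, while in spleen 40 of 43 members lie left of it on both arrays.

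The spleen comparison asked the same question. In the NP spleen pool 40 of 43 members were called lower and 0 higher, beside 6.33% of all measured genes called lower. The median was -2.99 ± 0.51, against -0.02 over all measured genes. All 43 members lay below 0 on both arrays, beside 36.3% of all measured genes. On both arrays 16 members were at least 8-fold lower, a count not made over all genes. The 3 that were not called were Kmo, Ivd and Gcsh. In pooled tissue, fewer cells of a type, less RNA per cell and RNA of another tissue in 1 of the pools cannot be told apart. All 7 hepatocyte and all 8 pancreas markers measured, given below, were called lower in NP spleen too. The differences were larger on array 2 than on array 1 in 36 members, the array with the lower negative-control signals, and the part of background in this was not tested.

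Among the urea cycle genes all 6 were called lower in NP spleen, with a median of -4.21 ± 0.44. Cps1 had levels of 7.62 and 6.67 in the NP pool and 14.07 and 14.40 in the low-NP pool on arrays 1 and 2. The low-NP pool was thus far above the NP pool on both arrays, and the ratio of -7.09 ± 0.64 was the furthest from 0 among the members as measured, with an NP signal well above background on array 1 alone. Otc stood at 7.01 and 6.68 in NP spleen and 12.63 and 13.09 in low-NP spleen, a ratio of -6.01 ± 0.39 whose NP signal, too, was well above background on array 1 alone. Arg1 was at 9.40 and 7.92 in NP spleen and 13.66 and 13.67 in low-NP spleen. Its level was almost the same on both arrays in the low-NP pool and differed between arrays in the NP pool, and its ratio was -5.01 ± 0.74. Nags was -3.41 ± 0.14, with levels of 8.42 and 8.39 in the NP pool and 11.70 and 11.94 in the low-NP pool. Ass1 had 11.45 and 11.06 in NP spleen and 14.27 and 14.21 in low-NP spleen (-2.99 ± 0.17), and Asl 10.43 and 10.30 and 12.28 and 12.20 (-1.88 ± 0.02). These 2 genes, which also serve arginine synthesis outside the liver, had the smallest differences of the cycle. In mm7, the build of the array files, the Cps1 probe lies at chr1:67470600-67470659, the Otc probe at chrX:8753291-8753350 and the Arg1 probe at chr10:24669046-24669105. Exons and untranslated regions of that build were not used here.

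The genes of ammonia, glutamate and glutamine were all 4 called lower in NP spleen, over a wide range. Gls2, the liver-type glutaminase, was -4.21 ± 0.48 (18.5-fold lower). Got1, the cytosolic aspartate aminotransferase, was -1.57 ± 0.02, Glud1, the mitochondrial glutamate dehydrogenase, -0.96 ± 0.13 and Glul -0.91 ± 0.27. Glul was thus lower in the NP pool of both tissues, by less than the call in liver. In spleen its 2 arrays gave -0.64 and -1.17, of which the first is just past the threshold.

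In tyrosine breakdown all 4 members were called lower in NP spleen. Tat, the aminotransferase that starts it, had levels of 9.64 and 8.72 in NP spleen and 13.53 and 13.83 in low-NP spleen, and a ratio of -4.50 ± 0.61. Hpd and Hgd, the dioxygenases of the middle steps, were -4.07 ± 1.26 and -4.04 ± 0.82. Hpd had the widest gap between arrays of all members in spleen. Fah, which ends the pathway, was -2.00 ± 0.19, the smallest difference of the group.

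In the tryptophan group 3 of 4 members were called lower. Tdo2, the hepatic enzyme that opens the indole ring, was -4.41 ± 0.99. The enzymes after it lay much closer to 0: Afmid, the formamidase, was -0.81 ± 0.02, Kynu -1.05 ± 0.06 and Kmo, the kynurenine hydroxylase, -0.57 ± 0.05. Kmo passed the threshold on array 1 and not on array 2 (-0.62 on array 1 and -0.51 on array 2). Both proline genes were called lower, Prodh at -2.47 ± 0.36 and Aldh4a1, the dehydrogenase of the next step, at -1.96 ± 0.05.

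Of the 9 measured genes of serine, glycine and one-carbon units, 8 were called lower. Agxt had levels of 9.37 and 8.64 in NP spleen and 14.70 and 14.66 in low-NP spleen and a ratio of -5.68 ± 0.34. Dmgdh, which oxidises dimethylglycine, had 7.38 and 6.95 against 12.67 and 12.98 and a ratio of -5.66 ± 0.37. Both were more than 5 log2 units lower on each array. The NP spleen levels of Dmgdh lay in the range of those of Cps1, so the exact size of its ratio is uncertain. Gnmt, which methylates glycine and is abundant in hepatocytes, had 11.28 and 10.13 in NP spleen and 15.37 and 15.34 in low-NP spleen (-4.65 ± 0.56). Sds, the serine dehydratase, was -3.74 ± 0.78, while its relative Sdsl was -0.72 ± 0.08. Sardh, which oxidises sarcosine, was -3.09 ± 0.67 and Shmt1, the cytosolic serine hydroxymethyltransferase, -1.46 ± 0.12. The glycine cleavage genes differed from one another: Gldc, its decarboxylase, was -2.97 ± 0.72, with an NP signal well above background on array 1 alone, and Gcsh, its carrier protein, -0.60 ± 0.40 and not called, with -0.20 on array 1 and -1.005 on array 2.

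All 5 genes of methionine and transsulfuration were called lower in NP spleen. Mat1a, the S-adenosylmethionine synthetase of adult liver, had levels of 8.42 and 7.54 in NP spleen and 13.03 and 13.23 in low-NP spleen (-5.15 ± 0.54). Bhmt, which remethylates homocysteine with betaine, had 9.83 and 8.27 and 14.16 and 14.05 (-5.05 ± 0.73). Cth and Cbs, the enzymes that turn homocysteine into cysteine, were -4.03 ± 0.58 and -2.13 ± 0.54. Ahcy, which splits S-adenosylhomocysteine in most cells, was -2.51 ± 0.02.

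The 4 histidine genes lay close together in spleen, from -5.18 ± 0.60 for Ftcd to -3.55 ± 0.75 for Amdhd1, and all were called lower. Ftcd, which passes the last carbon to folate, had levels of 9.24 and 8.18 in NP spleen and 13.82 and 13.95 in low-NP spleen. Hal, the lyase of the first step, was -3.83 ± 0.82 and Uroc1, the urocanase of the second, -3.64 ± 0.75. Branched-chain breakdown stood at the other end. Its median was -0.83 ± 0.05, with 4 of 5 members called lower. Bckdha and Bckdhb, subunits of the branched-chain ketoacid dehydrogenase, were -0.85 ± 0.00 and -1.15 ± 0.18. Hibch, of valine breakdown, was -0.83 ± 0.07 and Mccc1, of leucine breakdown, -0.64 ± 0.04. Ivd, also of leucine breakdown, was -0.63 ± 0.06 and not called, since array 1 gave -0.57. The calls closest to the threshold depended on the processing: Glul and Mccc1 were not called with the scanner software's ratio, nor Sdsl without background correction or with median centring, nor Afmid, Glul and Mccc1 with the mean over all probes.

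The NP pools of the 2 tissues were compared to show where each gene is highly expressed on one diet. All 43 members were at least 1.5-fold higher in NP liver than in NP spleen on both arrays, where 22.7% of the 16606 genes measured in both tissues were higher in liver and 24.6% higher in spleen. The members' median difference was 5.02 ± 0.50 log2 units, against 0.01 ± 0.07 over all genes. At least 16-fold higher on both arrays were 28 members, beside 507 of the 16606 genes. The lowest difference was 1.79 ± 0.05, for Mccc1. At the low end with Mccc1 were Ivd (1.85 ± 0.11), Glul (1.92 ± 0.19), Hibch (2.15 ± 0.07) and Glud1 (2.21 ± 0.10), whose order is within the spread of the arrays for neighbours. The highest among members well above background in NP spleen on both arrays was Dmgdh (8.01 ± 0.22). Its NP spleen levels of 7.38 and 6.95 lay between the Cps1 levels of 7.62 and 6.67, so its exact size is uncertain too. Otc and Cps1 measured 8.24 ± 0.16 and 8.97 ± 0.43 with an NP spleen signal above background on 1 of 2 arrays, which leaves their exact size unknown. By group, the median difference between the NP pools was 6.48 for the urea cycle, 6.25 for histidine, 6.23 for tyrosine, 6.07 for methionine and transsulfuration and 5.72 for serine, glycine and one-carbon units. It was 4.34 for proline, 3.03 for tryptophan and kynurenine, 2.62 for ammonia, glutamate and glutamine and 2.15 for branched-chain amino acids. This difference and the spleen ratio share the NP spleen pool, so their sizes are not independent. The spleen ratios of the last 3 groups had medians of -0.93 ± 0.02, -1.26 ± 0.01 and -0.83 ± 0.05. For ammonia, glutamate and glutamine the array medians in spleen were -1.34 and -1.36.

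Set on the scale of its own signal in NP liver, each member could be followed through the pools. In all 43 members, on both arrays, the low-NP spleen pool lay above the NP spleen pool and below both liver pools. How many of all measured genes had this order was not counted, so it is not shown to be particular to the members. The NP spleen signal was between 0.392% (Dmgdh) and 28.9% (Mccc1) of the NP liver signal among the 40 members well above background there on both arrays. Over all 43 it had a median of 3.38% ± 0.94. The lower end is uncertain, since the NP spleen levels of Dmgdh lay in the range of those of Cps1. The low-NP spleen signal covered a much narrower range, from 14.6% (Cbs) to 49.7% (Glul), with a median of 23.8% ± 0.97, which was 30.0% without normalization between arrays. Cps1 was at 27.4% ± 3.86 in low-NP spleen and, with a signal above background on 1 of 2 arrays, near 0.2% in NP spleen. Arg1 was at 0.937% ± 0.478 in NP spleen and 26.0% ± 1.24 in low-NP spleen. Glud1, by contrast, was at 21.7% ± 1.51 and 42.0% ± 0.996. The low-NP spleen signal had a median of 22.0% over the 28 members at least 16-fold higher in NP liver and 33.7% over the other 15. For the NP spleen signal these were 1.46% and 17.8%. The split was made on NP liver over NP spleen, so the NP spleen medians differ by construction. Those of low-NP spleen share the NP liver signal with it and are not independent of it. By group the low-NP spleen medians were 18.2% for histidine, 20.4% for tyrosine, 22.4% for serine, glycine and one-carbon units, 22.9% for proline and 24.2% for tryptophan. They were 24.5% for methionine, 25.7% for the urea cycle, 39.1% for glutamate and glutamine and 40.1% for branched-chain amino acids.

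With the NP spleen signal subtracted from both pools, the signal in low-NP spleen was 20.1% ± 1.4 of that in NP liver, as the median over the 43 members. It ran from 10.3% for Kmo to 34.2% for Gnmt. Members with at least 16-fold more signal in NP liver, 28 in number, had a median of 20.2% ± 1.6, and the other 15 had 19.8% ± 0.89. These medians are taken over the genes' means. On arrays 1 and 2 the medians were 19.0% and 22.3% for the 28, and 16.7% and 18.5% for the 15. The 15 were thus lower on each array. Within the urea cycle the values were 27.3% for Cps1, 21.4% for Otc, 24.1% for Ass1, 19.8% for Asl, 25.3% for Arg1 and 15.3% for Nags. The low-NP liver signal was between 70.3% (Prodh) and 126% (Glul) of that in NP liver, with a median of 94.0%.

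**Figure D2:**
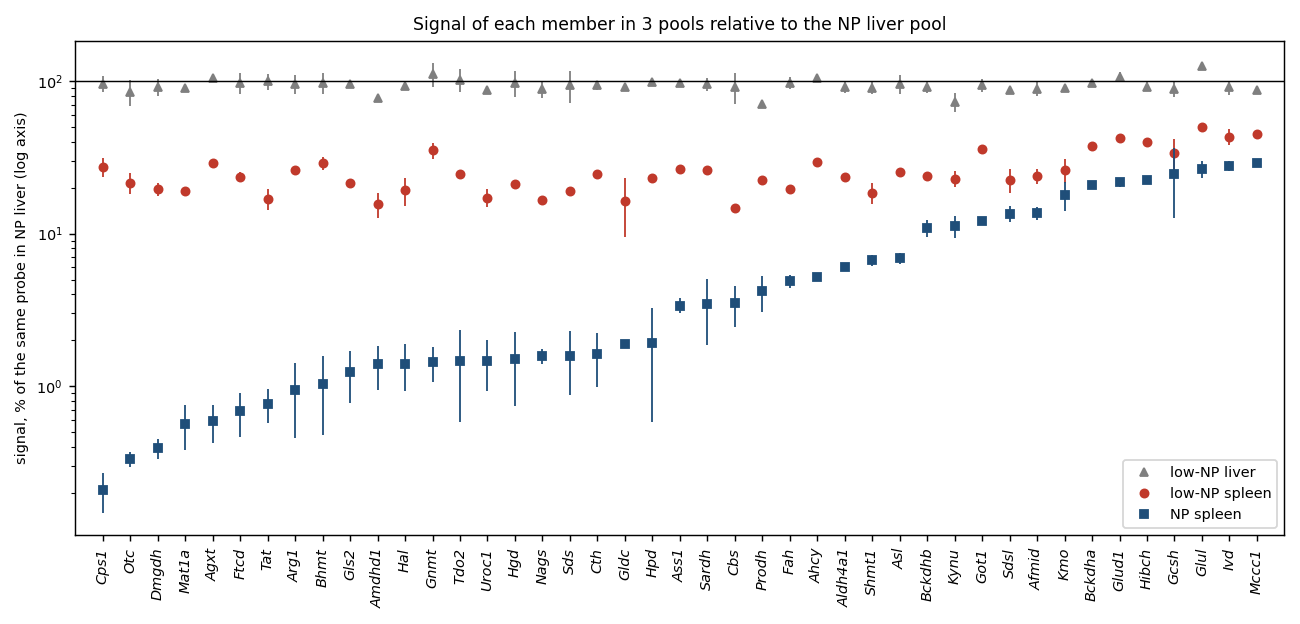
Signal of each member in low-NP liver (grey triangles), low-NP spleen (red circles) and NP spleen (blue squares) as a percent of the signal of the same probe in NP liver, on a log axis. Symbols are means of 2 arrays and vertical lines join the arrays, with genes ordered by NP spleen. The NP spleen values of members above background there on both arrays run from 0.392%, an uncertain low value, to 28.9%. Those of low-NP spleen stay between 14.6% and 49.7%.

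Hepatocyte markers that are no members moved in the same direction in spleen. Of 10 listed, 7 had a probe, and all 7 were called lower in NP spleen, with a median of -5.29 ± 0.37. None was called in liver, where the arrays disagreed: their medians were 0.77 and -0.51, and 5 of 7 markers had opposite signs. Fabp1 (1.29 and -1.11), Apoh (1.01 and -0.59) and Ahsg (0.77 and -0.94) passed 1.5-fold in opposite directions there. These markers are thus not shown to be level in liver. Apoa1, an apolipoprotein, was -5.29 ± 0.37 in spleen, Ttr, the thyroxine carrier transthyretin, -4.01 ± 0.88 and Apoh, a plasma glycoprotein, -7.67 ± 0.48. The summed signal of the list was 14726 to 31544 in NP spleen and 851050 to 1202961 in low-NP spleen, against 810994 to 1248088 in NP liver. As a percent of NP liver the low-NP spleen signal was 20.3% for Ttr, 33.9% for Trf, 37.7% for Apoa1, 43.5% for Apoh and 71.1% for Fgg. Ahsg and Fabp1 were above their NP liver signal, at 184% and 221%. The part of hepatocyte RNA in the spleen result of the members was not tested.

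Markers of spleen cells lay close to 0 between the spleen pools. None of 7 B cell, 8 T cell or 8 macrophage markers was called there, with Cd79b at 0.17 ± 0.10, Cd3d at 0.06 ± 0.05 and Csf1r at 0.18 ± 0.08. The medians were 0.17 ± 0.02, 0.05 ± 0.02 and 0.17 ± 0.12 with loess, and below 0 with median centring (-0.06, -0.20 and -0.12). Of 8 erythroid markers 3 were called higher (0 with median centring), with a median of 0.51 ± 0.05, and Klf1 and Epb4.2 were not called (0.60 ± 0.05 and 0.43 ± 0.05). All 8 measured pancreas markers were called lower in NP spleen, at a median of -2.13 ± 0.14, with Prss2, a trypsinogen, at -2.12 ± 0.10. Their summed signal was 186429 to 346493 in NP spleen and 1158451 to 1294370 in low-NP spleen.

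Other genes of the same pathways were level in liver and mostly lower in NP spleen. Of 52 further genes of amino acid breakdown measured in liver, 0 were called, with a median of 0.10 and array medians of 0.03 and 0.08. In spleen 31 of 51 were called lower and 0 higher, with a median of -0.81 and array medians of -0.89 and -0.88. Among the largest differences were those of Bhmt2 (-5.38 ± 0.50), Aass of lysine breakdown (-5.03 ± 0.59), Aadat (-4.23 ± 0.95), Cdo1, the cysteine dioxygenase (-4.13 ± 0.22), and Pipox (-3.99 ± 0.58). Not all of the list was lower in NP spleen: 6 of its genes had means above 0, the highest being Mat2a, the S-adenosylmethionine synthetase of non-hepatic cells, at 0.21 ± 0.09.

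Carriers of amino acids and of the urea cycle showed 0 of 13 called in liver and 6 of 14 called lower in spleen (median -0.83 ± 0.29). These were the amino acid transporters Slc38a4 (-5.61 ± 0.67) and Slc38a3 (-3.74 ± 0.56), the mitochondrial aspartate-glutamate carrier Slc25a13 (-2.58 ± 0.43), the hepatic glycerol and urea channel Aqp9 (-1.93 ± 0.70), the glutamate transporter Slc1a2 (-1.36 ± 0.44) and the mitochondrial glutamate carrier Slc25a22 (-0.89 ± 0.09). Among regulators of amino acid breakdown, 0 of 14 were called in liver and 9 of 14 were called lower in spleen (median -1.05 ± 0.02). The largest differences were those of Pck1 (-6.17 ± 0.12), a gluconeogenic target of glucagon counted in this list, Gcgr, the glucagon receptor (-5.46 ± 0.75), and Hnf4a, a nuclear receptor of hepatocytes (-2.82 ± 0.79). Creb3l3 (-2.48 ± 0.70), Klf15 (-2.25 ± 0.30) and Cebpa (-1.60 ± 0.37) followed. In liver Gcgr was 0.30 ± 0.29, Hnf4a 0.20 ± 0.11 and Klf15 0.32 ± 0.51, none of them called. Pck1 was -0.22 ± 0.14 there and Creb3l3 -0.05 ± 0.12. Cebpa was 0.02 ± 0.67, past 1.5-fold in opposite directions (-0.65 on array 1 and 0.70 on array 2). Of the 14 regulators, 4 lay above 0 on both liver arrays and 3 below, and in 7 the arrays had opposite signs.

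**Figure D3:**
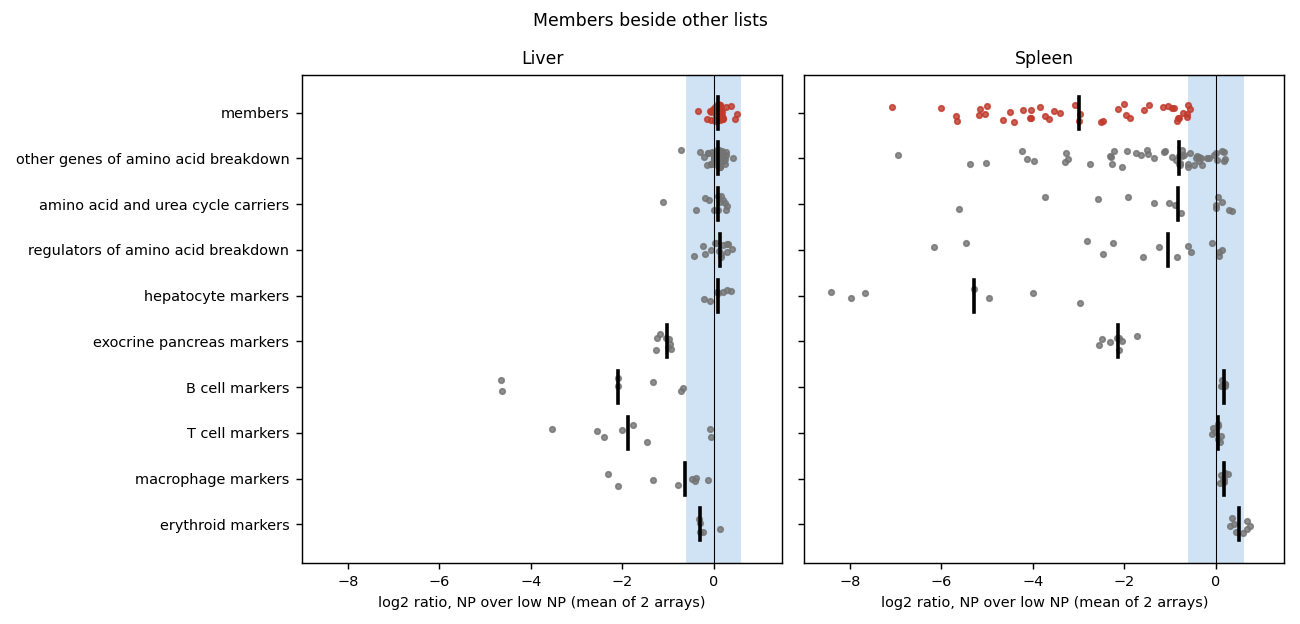
Log2 ratios of NP over low NP, mean of 2 arrays, for the members (red) and for other lists (grey) in liver (left) and spleen (right); each point is a measured gene, the black bar is the median and the blue band spans less than 1.5-fold. The members have a median of 0.10 in liver and -2.99 in spleen, beside -5.29 for hepatocyte markers in spleen.

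Further probes existed for 15 members. None of their 17 additional probes was called in liver. In spleen 16 of these were measured, of which 9 were called lower, 0 higher and 7 were not called. Otc shows the spread: its brightest probe gave -6.01 ± 0.39 in spleen, the second -3.84 and the third, which was dim, -0.24. The 2 further probes of Ahcy were -2.33 and -1.44, against -2.51 ± 0.02 for the brightest, and the second probes of Ass1 and Tdo2 were -3.32 and -4.45. The probe chosen thus set the size of a ratio and could decide whether it was called. All probes called lay in one direction. Among those not called, the third Otc probe (0.05 and -0.53) and the second Afmid probe (0.13 and -0.55) had arrays of opposite sign.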

How the data were processed

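Pooled RNA of each diet and tissue was hybridised on 4 two-colour Agilent arrays, 2 per tissue with dyes exchanged. Per the file headers, the deposited scanner files hold intensity values of each spot and its local background, with log10 ratios of red over green, made with Agilent Feature Extraction 9.5.3.1. The deposited value table holds log10 ratios of low NP over NP, a direction found by its correlation with the scanner ratios (between 0.991 and 0.998 in size). Its scale is log10 with column medians of -0.07 to 0.02, and what else was done to it is not stated.

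Mean signals were corrected with normexp (offset 50) and normalized by loess within arrays in limma 3.58.1 (R 4.3.3). Control spots and outlier spots were left out. Levels across arrays were made with Aquantile, and deposited intensities served as input for all of it. Repeated spots were averaged, and the brightest probe stood for a gene. The precision of these values is limited by the 2 arrays per tissue. The arrays of a tissue were counted as a dye swap of pooled RNA and so as 1 replicate, and no test was run. Labels number the pools 1 and 2 along with the dyes, and whether these were distinct pools is not stated.

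Calls needed 1.5-fold on both arrays. Named in full were the urea cycle genes and the 10 members of largest spleen difference, and of each further list the 6 largest called, except for a result that is not reported here. The members, lists and promoter motifs were chosen with earlier results of these data known. Alternatives changed the background correction, normalization, probe choice, filter and call, and the subtraction of the NP spleen signal was added after seeing the data.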

Additional observations from a re-analysis of the deposited data

Results flagged for a closer look

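In 19 members both liver arrays lay above 0 and both spleen arrays below 0. Since every member lay below 0 on both spleen arrays, these are simply the members above 0 on both liver arrays. Of all measured genes, 29.2% lay above 0 on both liver arrays and 36.3% below 0 on both spleen arrays. The share of all genes with both patterns was not counted, so the pattern is not shown to be particular to the members. The difference between the tissues was not tested, and every liver value is below the 1.5-fold of a call on at least 1 array. As spleen minus liver, on the log2 scale, the difference was -5.30 for Mat1a, -4.28 for Gls2, -4.09 for Hpd, -3.93 for Hal, -3.92 for Amdhd1, -3.83 for Uroc1 and -3.61 for Nags. It was -3.11 for Gldc, whose NP spleen signal was well above background on 1 of 2 arrays, -3.02 for Ass1, -2.98 for Prodh, -2.10 for Aldh4a1, -1.61 for Shmt1 and -1.51 for Kynu. For Afmid it was -0.98, for Hibch -0.95, for Sdsl -0.92, for Mccc1 -0.82, for Gcsh -0.78 and for Kmo -0.71. The medians behaved likewise, with -3.09 for the members and -0.91 for the other genes of amino acid breakdown. Among the members' liver values in this set, only that of Kynu passed 1.5-fold on an array.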

How the results depend on the processing

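No paired analysis was possible because no result comes from a test, the arrays of a tissue being counted as 1 replicate. In spleen between 31 (2-fold for a call) and 42 members were called lower and none higher under the alternatives run, and their median stayed between -3.55 and -2.53, the values of array 2 and array 1 alone. With only probes well above background in both channels 37 were called lower, at a median of -2.75. In liver the members' median stayed above 0, from 0.02 to 0.22 on single arrays and 0.39 with median centring, and 1 member (Kynu) passed the threshold on array 1 alone. Median centring also gave liver medians of 0.34 for the other genes of amino acid breakdown, 0.29 for carriers and 0.30 for regulators, and spleen medians of -1.09 for the other genes and -1.32 for regulators. With it, spleen medians of B cell, T cell and macrophage markers turned to -0.064, -0.20 and -0.12. With the scanner software's ratio 1 of the other genes and 1 carrier were called lower in liver, the spleen medians were -0.82 for the other genes and -0.94 for regulators, and the single kidney marker turned to 0.058.

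Over all genes, those called higher in liver numbered 42 with plain background subtraction, 303 with the scanner software's ratio, 312 with the deposited value table, 6 with a 2-fold call, 22 with the mean of both arrays past 1.5-fold and 76 to 345 on single arrays. Those called lower numbered 1333 without background correction, 1764 with plain subtraction, 1755 with the scanner software's ratio, 1762 with the deposited table, 324 with median centring, 296 at 2-fold, 1199 by the mean and 702 to 1924 on single arrays. The median of all liver genes was 0.11 with the scanner software's ratio, 0.10 with the deposited table, 0.057 with median centring and -0.043 to 0.012 on single arrays. In spleen 48 genes were called higher with the scanner software's ratio and 48 with the deposited table, 3 with median centring, 1 at 2-fold, 21 by the mean and 50 to 130 on single arrays, and 775 were lower at 2-fold. The spleen median of all genes turned to 0.10 with the scanner software's ratio, 0.10 with the deposited table and 0.0023 without a filter on dim probes. It was -0.018 with plain subtraction, -0.15 with median centring, -0.014 with probes above background in both channels and -0.031 to -0.030 on single arrays. The cause of these shifts was not tested.

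The low-NP spleen signal as a percent of NP liver had a median of 30.0% without normalization between arrays, 22.3% without background correction, 25.4% with the mean over all probes and 20.1% less the NP spleen signal. The difference between NP liver and NP spleen had medians of 4.73 to 5.74 on single pairs of arrays.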

Other observations

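Markers of the small intestine split in spleen. Fabp2, an intestinal fatty acid binding protein, was -5.39 ± 0.92 (NP over low NP, log2) and Apoa4, an apolipoprotein of intestine and liver, -1.29 ± 0.68, both called lower. Both had higher mean levels in the liver pools than in the spleen pools, so here they do not mark intestine alone. Fabp2 was at 15.43 in NP liver, 15.46 in low-NP liver, 7.98 in NP spleen and 13.36 in low-NP spleen. Apoa4 was at 11.25, 11.12, 7.88 and 9.18 in the same order. Vil1, a protein of the brush border, was -0.09 ± 0.12 and Lct, the lactase, -0.04 ± 0.05. With median centring 1 of these 4 was called lower. Aqp2, the only kidney marker measured there, was -0.07 ± 0.02. In liver none of 5 erythroid markers measured was called, with a median of -0.30 ± 0.21. With the scanner software's ratio 2 of them were called lower, at a median of -1.71.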
